A study of Mus musculus with 6 samples.

Results

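The GM-CSF receptor, JAK2 and STAT5 axis was followed here as 10 genes, chosen by name: the cytokine gene Csf2, the receptor chains Csf2ra and Csf2rb, the kinase gene Jak2, the transcription factor genes Stat5a and Stat5b, and the target genes Cish, Pim1, Socs2 and Bcl2l1. All 10 were measured among 19505 named genes, each by 1 probe set. The samples were brain microglia of female C57BL/6 mice at the peak of experimental autoimmune encephalomyelitis (EAE), a model of multiple sclerosis. All mice had been immunized with recombinant myelin oligodendrocyte glycoprotein (rMOG) in incomplete Freund's adjuvant (IFA) and had received pertussis toxin. The 3 control samples carried the genotype label control, and the 3 CKO samples carried the label B cell conditional knock-out. The series title ties the CKO to B cells that express GM-CSF. The sources used here name neither the deleted gene nor the Cre driver, and give no age. Nor do they say that the replicates came from separate animals, and each p-value therefore reflects the variation among 6 arrays, part of which may be technical. The comparison here is of transcript levels of this axis in the isolates labelled CKO and control.

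GM-CSF is a cytokine that activates macrophages, microglia, granulocytes and dendritic cells. It binds an alpha chain that gives specificity and a beta chain shared with the receptors for interleukin-3 and interleukin-5. JAK2, bound to the beta chain, phosphorylates the receptor and the STAT5 proteins, which then enter the nucleus and switch on genes for feedback inhibitors, survival proteins and cell growth. In EAE, GM-CSF is known as a cytokine through which lymphocytes act on myeloid cells of the central nervous system.

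All 14 measured microglia markers lay above the upper quartile of every array, with P2ry12, a purinergic receptor of resting microglia, between 18.76 and 19.72 (log2 units here and below). Also above it on every array were 10 of 14 neutrophil markers, 10 of 15 monocyte and macrophage markers and 3777 of all 19505 named genes. The isolates also carried RNA of other cells in unequal amounts. The mean of 11 astrocyte markers, Gfap, Aqp4 and Aldh1l1 among them, was 12.01 on CKO replicate 1 and 10.63 on control replicate 2, against 8.40 to 8.93 on the other arrays. CKO replicates 2 and 3 had a narrower interquartile range (3.08 and 3.11) than the other arrays (3.66 to 4.0). Over the whole table, the limma test with Benjamini-Hochberg adjustment called 2 of 22206 probe sets at an adjusted p under 0.05 (0.00901%), both lower in CKO.

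None of the 10 axis genes passed that test. The test found 4 of them at an unadjusted p under 0.05, namely Pim1, Jak2, Csf2ra and Cish, all lower in CKO, where 6.35% of all probe sets reached that p in the lower direction and 3.55% in the higher one. Pim1 showed the largest difference, from 12.10 ± 0.54 (SD, n = 3) in controls to 9.69 ± 0.50 in CKO, which is 5.33-fold lower with a 95% interval of 2.91-fold to 9.76-fold (limma adjusted p = 0.0991). For 4 genes (Pim1, Jak2, Csf2rb and Stat5a) every CKO array lay below every control array, a pattern found in 8.48% of all probe sets, while 5.94% had every CKO array above every control array. All 10 estimates were below 0, as were 44.5% of all probe sets, and their median was -0.47, against 0.05 for all named genes. The signs of Csf2, Socs2 and Bcl2l1 depended on the arrays or the scaling, as given beside each.

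**Figure D1:**
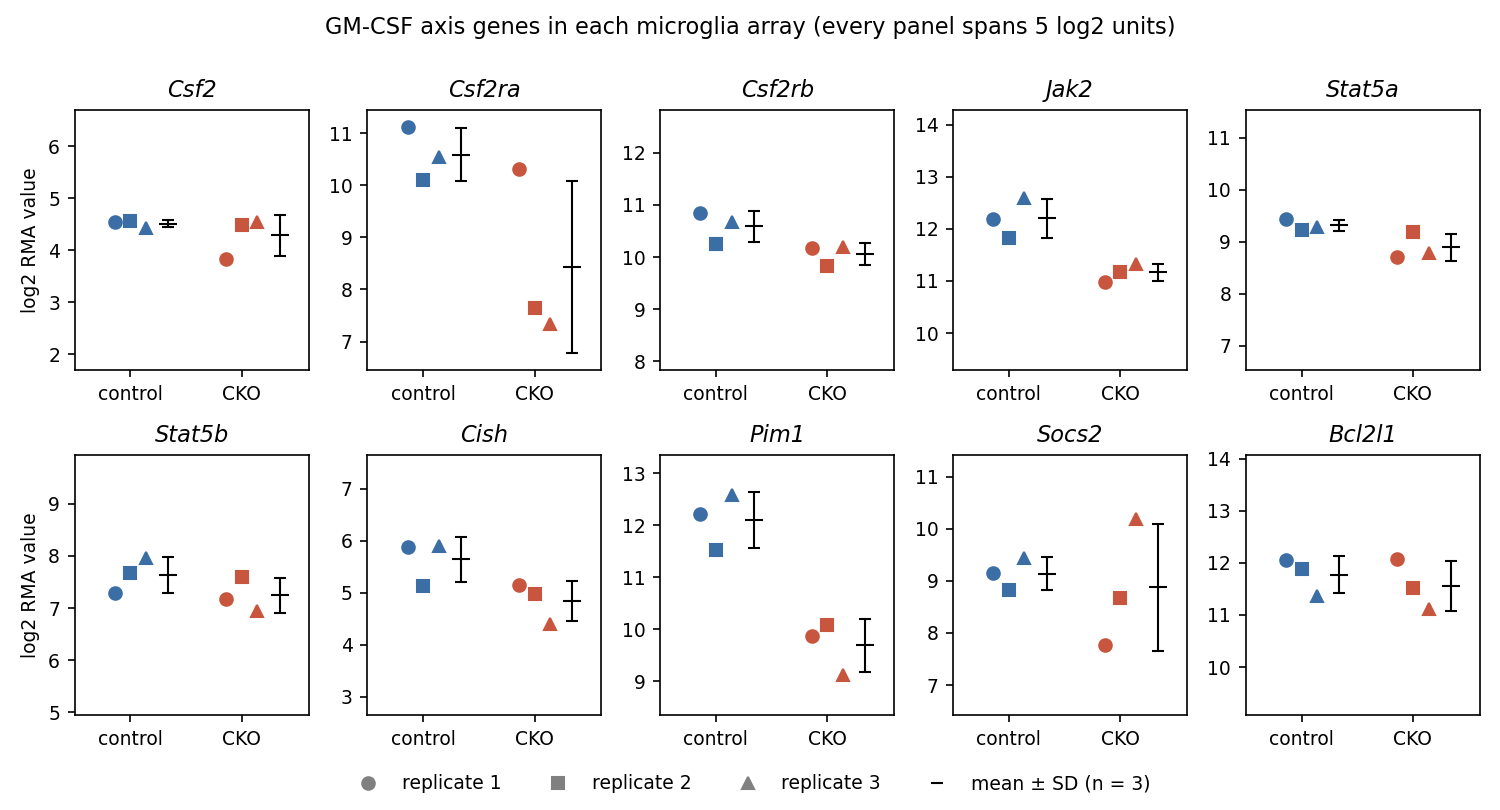
Log2 RMA values (vertical axis, each panel spanning 5 log2 units) of the 10 axis genes on 3 control (blue) and 3 CKO (red) arrays, with marker shape for the replicate number and black bars for mean ± SD. The groups are 1.44 apart for Pim1, more than the range within either group, and 0.50 apart for Jak2, whereas Csf2ra is low on CKO replicates 2 and 3 and at 10.32 on CKO replicate 1.

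The ligand gene Csf2, which encodes GM-CSF, was close to the floor of the arrays. It stood at 4.55, 4.56 and 4.43 on control replicates 1, 2 and 3, and at 3.84, 4.48 and 4.55 on CKO replicates 1, 2 and 3. All 6 values were below the lower quartile of their array, and the groups overlapped. The difference of -0.22 (95% interval -0.89 to 0.44, adjusted p = 0.797) rested on CKO replicate 1, without which it was 0.00167. The labels place the knock-out in B cells, so Csf2 in these isolates does not check the genotype. B cell markers were mixed, with 8 of 12 lower and 4 higher in CKO, 2 of them lower at an unadjusted p under 0.05, and a median difference of -0.33. Those 2, named after their values were seen, were Jchain, the joining chain of secreted antibodies (-4.98), and Cd22, an inhibitory receptor (-2.22). The first 3 of that list on the array, Ms4a1, Cd79a and Cd79b, which encode the CD20 antigen and the signalling chains of the B cell receptor, differed by -0.59, -0.99 and -0.88 (adjusted p = 0.597, 0.551 and 0.534).

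The alpha chain gene Csf2ra split the CKO arrays. Controls stood at 11.12, 10.10 and 10.54 for replicates 1, 2 and 3, and CKO replicates 1, 2 and 3 at 10.32, 7.64 and 7.33. CKO replicate 1 thus lay within the control range, and both other CKO arrays lay far below the lowest control. The fitted difference was -2.16 (95% interval -3.82 to -0.49, limma adjusted p = 0.378). It was -3.10 without CKO replicate 1 (adjusted p = 0.0108), where 2209 of all 22206 probe sets passed the adjusted test. With CKO replicate 1 as the only CKO array the difference was -0.27, a value given with no test. Among the CKO arrays, the one with the high Csf2ra value had the highest astrocyte markers, and the 2 with low Csf2ra were the narrow-range arrays. Among the controls it was the other way round. Control replicate 2, with the highest control mean of astrocyte markers (10.63), had the lowest control value of Csf2ra (10.10). After quantile normalization, which gives all arrays the same range, the difference was -2.18 (adjusted p = 0.343). With the astrocyte marker level as a covariate it was -2.5 (adjusted p = 0.0376), where 749 of all 22206 probe sets passed the adjusted test.

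The beta chain gene Csf2rb, which carries the signalling part of the receptor, was less variable. It stood at 10.84, 10.26 and 10.67 on control replicates 1, 2 and 3 and at 10.18, 9.82 and 10.19 on the CKO replicates. The groups did not overlap, but only 0.07 separated the lowest control from the highest CKO value. The difference was -0.53 (SE 0.28, 95% interval -1.18 to 0.12, adjusted p = 0.561), and -0.33 under quantile normalization and -0.28 under cyclic loess. On CKO replicates 2 and 3, Csf2ra lay 2.46 and 2.77 below its lowest control, and Csf2rb lay 0.44 and 0.07 below its own. A closely related paralog, Csf2rb2, can share probe sequence with Csf2rb and was not analysed here.

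Jak2, the kinase bound to the beta chain, was at 12.19, 11.83 and 12.59 on control replicates 1, 2 and 3, and at 10.99, 11.17 and 11.33 on CKO replicates 1, 2 and 3. Every CKO value was below every control value by at least 0.50, and the CKO arrays spanned only 0.34. The difference of -1.04 (SE 0.30, 2.06-fold lower, 95% interval 1.29-fold to 3.28-fold) missed the threshold over all probe sets (limma adjusted p = 0.279). It lay between -1.23 and -0.85 when single arrays were left out.

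The STAT5 genes, closely related paralogs that lie next to each other and can share probe sequence, had smaller estimates than Jak2, a difference that was not tested. Stat5a stood at 9.44, 9.22 and 9.28 in control replicates 1, 2 and 3 and at 8.71, 9.19 and 8.78 in the CKO replicates, so that the groups were apart by only 0.03. Its difference was -0.42 (95% interval -1.04 to 0.20, adjusted p = 0.613). Stat5b stood at 7.28, 7.67 and 7.97 in controls and at 7.18, 7.60 and 6.95 in CKO, with overlapping groups. Its difference was -0.40 (95% interval -1.11 to 0.31, adjusted p = 0.666). The intervals reach 2.05-fold lower for Stat5a and 2.15-fold lower for Stat5b, so these arrays do not show that the transcripts were equal.

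The target genes were apart from each other. Pim1, a serine-threonine kinase gene induced by STAT5 that favours survival, stood at 12.21, 11.52 and 12.58 on control replicates 1, 2 and 3 and at 9.87, 10.08 and 9.12 on CKO replicates 1, 2 and 3. The lowest control lay 1.44 above the highest CKO value, and by its p Pim1 ranked at 41 of all 22206 probe sets. The difference of -2.41 (SE 0.38) kept its size with any single array left out (-2.71 to -2.13) and with CKO replicate 1 as the only CKO array (-2.23). Its adjusted p passed 0.05 without control replicate 2 (0.0437) and without CKO replicate 1 (0.0145), and was 0.193 to 0.521 without any of the others. Of all 22206 probe sets, 125 passed without control replicate 2 and 2209 without CKO replicate 1.

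Cish, a SOCS family inhibitor that binds activated receptors and is a classic read-out of STAT5 activity, was dim, with 4 of 6 values below the lower quartile of their array. It stood at 5.88, 5.14 and 5.90 on control replicates 1, 2 and 3 and at 5.15, 4.98 and 4.40 on CKO replicates 1, 2 and 3. The groups overlapped by 0.01, through control replicate 2 and CKO replicate 1. The difference was -0.80 (95% interval -1.57 to -0.02, limma adjusted p = 0.495).

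Socs2, a related inhibitor that also limits growth hormone signalling, was at 9.15, 8.82 and 9.45 in control replicates 1, 2 and 3. In CKO replicates 1, 2 and 3 it was at 7.77, 8.67 and 10.19, so the CKO arrays held both the lowest and the highest value. The difference was -0.26 (95% interval -1.54 to 1.02, adjusted p = 0.878), and 0.29 without CKO replicate 1. Bcl2l1, which encodes the survival protein Bcl-xL, was at 12.05, 11.89 and 11.37 in controls and at 12.07, 11.51 and 11.11 in CKO. Its groups overlapped, with a difference of -0.21 (95% interval -0.99 to 0.57, adjusted p = 0.844) that was 0.04 under quantile normalization and 0.06 under cyclic loess.

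**Figure D2:**
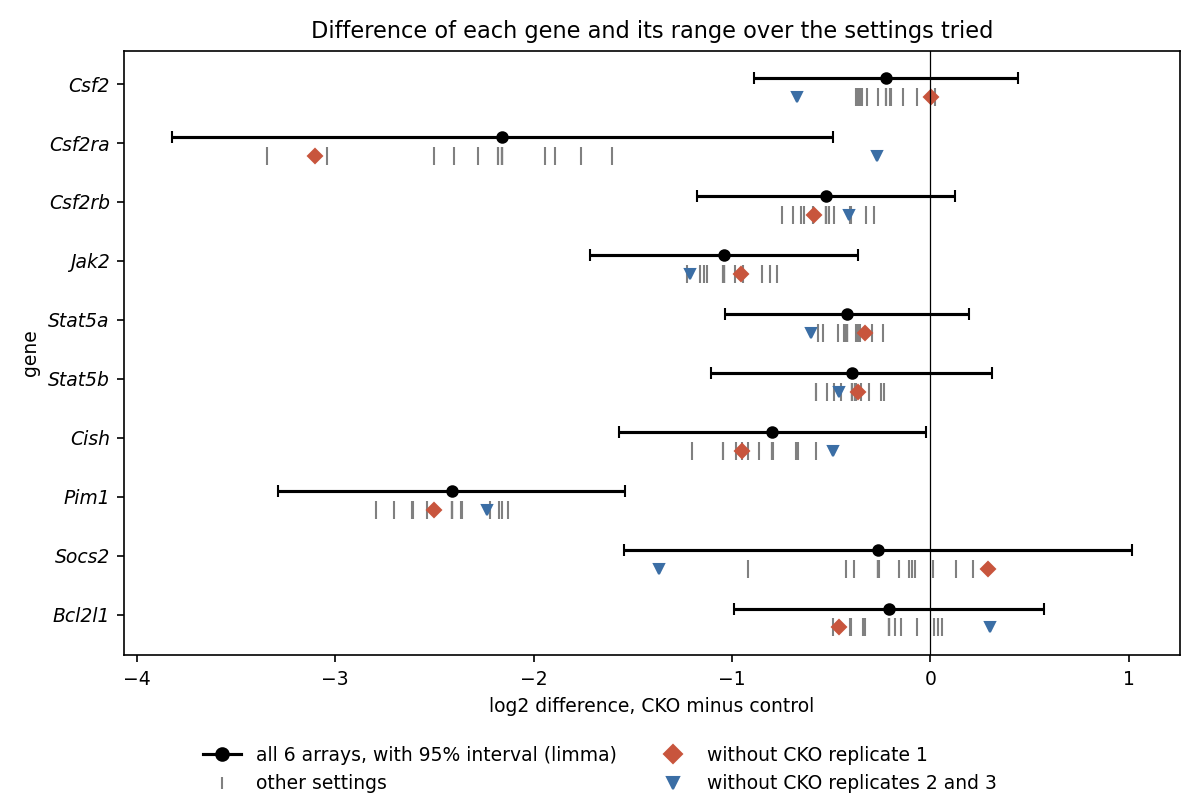
Log2 difference (CKO minus control, horizontal axis) of each axis gene with its 95% limma interval (black), and below it the estimate under each other setting (grey ticks), without CKO replicate 1 (red diamonds) and without CKO replicates 2 and 3 (blue triangles). Over the settings shown, Pim1 lies between -2.79 and -2.13 and Jak2 between -1.23 and -0.77, whereas Csf2ra moves from -3.10 to -0.27 between the red and the blue marker.

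STAT5 binds DNA at the palindrome TTCNNNGAA, which reads the same on both strands, and the start regions of the 4 genes with an unadjusted p under 0.05 are shown for that reason. The sequences are RefSeq's (build GRCm38.p6), 5′ to 3′ on the gene's strand, with matches to the palindrome in capitals. They cover chr9:107296539-107296678 (plus strand) for Cish, chr17:29490665-29490784 (plus strand) for Pim1, chr19:61228419-61228538 (minus strand) for Csf2ra and chr19:29251683-29251802 (plus strand) for Jak2. Each begins 120 bases before the annotated start, and the Cish stretch runs 20 bases past it.
Cish: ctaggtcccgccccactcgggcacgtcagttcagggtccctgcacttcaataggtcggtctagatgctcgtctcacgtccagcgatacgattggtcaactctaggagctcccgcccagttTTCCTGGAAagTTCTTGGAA
Pim1: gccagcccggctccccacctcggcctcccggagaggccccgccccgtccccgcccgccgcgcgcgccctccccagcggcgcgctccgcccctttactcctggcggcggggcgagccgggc
Csf2ra: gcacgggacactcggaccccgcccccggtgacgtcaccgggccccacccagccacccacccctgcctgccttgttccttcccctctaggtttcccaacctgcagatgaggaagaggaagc
Jak2: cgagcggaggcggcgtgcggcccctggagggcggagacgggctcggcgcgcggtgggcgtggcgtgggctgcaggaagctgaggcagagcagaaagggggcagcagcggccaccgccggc

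Cish held 2 matches, TTCCTGGAA beginning at base 1 of the annotated transcript and TTCTTGGAA at base 12. The table had windows of 300 bases (250 before to 50 after a start) for 8 of the 10 genes, Csf2rb and Socs2 being the others. Of their 13 windows, only the Cish window held the palindrome. Among all 32851 windows of that length, 8.30% held at least 1 match and 0.457% held 2 or more. The 2 windows of Pim1, the gene with the largest difference, held none, which says only that these letters are not in these windows. Among the wider pathway genes described below, 5 of 74 measured genes with a window held a match (6.76%), against 2582 of 27025 genes in the whole table (9.55%).

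The wider pathway was read from 7 lists of 107 genes, 93 of them measured. None of the 93 passed the limma test over all probe sets. At an unadjusted p under 0.05, 33 were lower and 1 was higher, against the 6.35% and 3.55% of all probe sets given above. The lists hold brighter genes than the table, with 42 of the 93 above the upper quartile of every array, against 3777 of 19505 named genes. Without the dimmest 50% of probe sets, 24 of 68 pathway genes were lower and 1 higher at that p. The shares of all remaining probe sets were then 11.02% and 2.70%. The median difference over the 93 genes was -0.52. With each array centred on its median, 34 were lower and 1 higher, where 8.14% of all probe sets were lower and 2.12% higher at that p. Of the 93 genes, 6 also serve as cell type markers. Without control replicate 1 the lower genes numbered 20, where 3.84% of all probe sets were lower at that p, and without control replicate 3 they numbered 17, where 3.89% were. Without CKO replicate 1, 15 of the 93 passed the adjusted test, as did 2209 of all 22206 probe sets.

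Closest to the axis were the partner chains and cytokines of the beta chain family, with 2 of 4 measured genes lower, 2 higher and a median of -0.20. None had an unadjusted p under 0.05. Il3ra and Il5ra, the alpha chains for interleukin-3 and interleukin-5, differed by -0.52 (95% interval -1.40 to 0.36, adjusted p = 0.653) and -0.74 (-1.83 to 0.35, 0.612), intervals that do not show equal levels. Il5, the cytokine of eosinophils, differed by 0.23 (0.813), and by -0.02 without CKO replicate 2.

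Of 14 kinases and adaptors near the receptor, 12 were lower and 3 of these had an unadjusted p under 0.05, with a list median of -0.60. The mean of the list was 11.04 to 11.17 on the controls, 11.15 on CKO replicate 1, and 10.45 and 10.32 on CKO replicates 2 and 3, the narrow-range arrays. Tyk2 and Jak1, Janus kinases of interferon and other cytokine receptors, differed by -1.02 (adjusted p = 0.31) and -0.72 (0.48). Tyk2 was at 12.40, 11.85 and 12.17 in controls and at 11.35, 11.29 and 10.71 in CKO, without overlap, like Jak2. Gab2, a docking adaptor that links the receptor to phosphoinositide 3-kinase, differed by -0.99 (0.395).

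The other STAT genes were all lower in CKO, 3 of 4 with an unadjusted p under 0.05, and had the lowest median of the 7 lists (-1.44). Stat2, a part of the interferon-induced complex, was at 12.15, 11.09 and 13.40 in controls and at 10.14, 10.17 and 10.39 in CKO (difference -1.98, adjusted p = 0.239). Stat4, the factor of interleukin-12 signalling in T and NK cells, differed by -1.98 (0.288), and Stat6, that of interleukin-4, by -0.90 (0.423). The estimates for Stat5a and Stat5b, -0.42 and -0.40, were smaller in size than those of these 3, a difference that was not tested.

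Negative regulators of the pathway had a median of -0.20, with 16 of 19 lower and 4 of these at an unadjusted p under 0.05. Their mean was 10.51 to 10.66 on the controls and 10.57 on CKO replicate 1, and was lower, at 9.94 and 9.92, on CKO replicates 2 and 3 only. Dusp1, a phosphatase of MAP kinases, differed by -1.73 (adjusted p = 0.238), Ptpn6, which encodes the phosphatase SHP-1, by -1.32 (0.314), and Socs1, an inhibitor of JAK kinases, by -0.87 (0.45). Socs1 overlapped between the groups, whereas Dusp1 and Ptpn6 did not. The other gene at that p, Socs3, an inhibitor of interleukin-6 type signalling named after its value was seen, differed by -1.37. Socs1 on CKO replicates 1 and 2, and Socs3 on CKO replicates 2 and 3, were below the lower quartile of their array.

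Further STAT5 targets had a median of -0.89, with 13 of 19 lower, 10 of them at an unadjusted p under 0.05. Igf1, a growth factor, was at 10.36, 10.88 and 10.70 in controls and at 9.15, 9.33 and 9.37 in CKO (difference -1.36, adjusted p = 0.13). Il2ra, the alpha chain of the interleukin-2 receptor on activated T cells, differed by -1.64 (0.172). Its CKO values (4.48, 5.67 and 5.11) were all below the lower quartile of their array, so the size of that difference is uncertain. Bcl2a1d, a survival gene of leukocytes, differed by -1.41 (0.247), and near-identical copies that can share its probes make that value uncertain.

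GM-CSF response genes of myeloid cells had a median of -0.82, with 15 of 20 lower, 10 of them at an unadjusted p under 0.05. Mmp12, the macrophage elastase, was at 8.71, 9.50 and 9.59 in controls and at 6.35, 7.35 and 6.36 in CKO, a difference of -2.58 that was close to the threshold (SE 0.39, limma adjusted p = 0.0891). Itgax, which encodes the integrin CD11c, differed by -2.0 (0.121). Ccl22, a chemokine of dendritic cells and macrophages, differed by -3.66 (0.145), and its control replicate 2 (8.90) lay near CKO replicate 2 (8.10).

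The list of other receptors that use JAK2 was mixed, with 8 lower and 5 higher of 13 and a median of -0.15. That list also held Csf1r, a receptor with its own kinase (0.03), and Il6ra, a chain that binds interleukin-6 (-0.48). Il23r, the interleukin-23 receptor of T cells, and Csf3r, the receptor for G-CSF, differed by -0.91 (adjusted p = 0.436) and -0.86 (0.46). Ghr, the growth hormone receptor, went the other way, from 5.92, 5.23 and 5.55 in controls to 6.84, 6.41 and 6.21 in CKO (difference 0.92, adjusted p = 0.375). It was the 1 pathway gene with a higher CKO value at an unadjusted p under 0.05. Its values on control replicates 2 and 3 were below the lower quartile of their array.

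**Figure D3:**
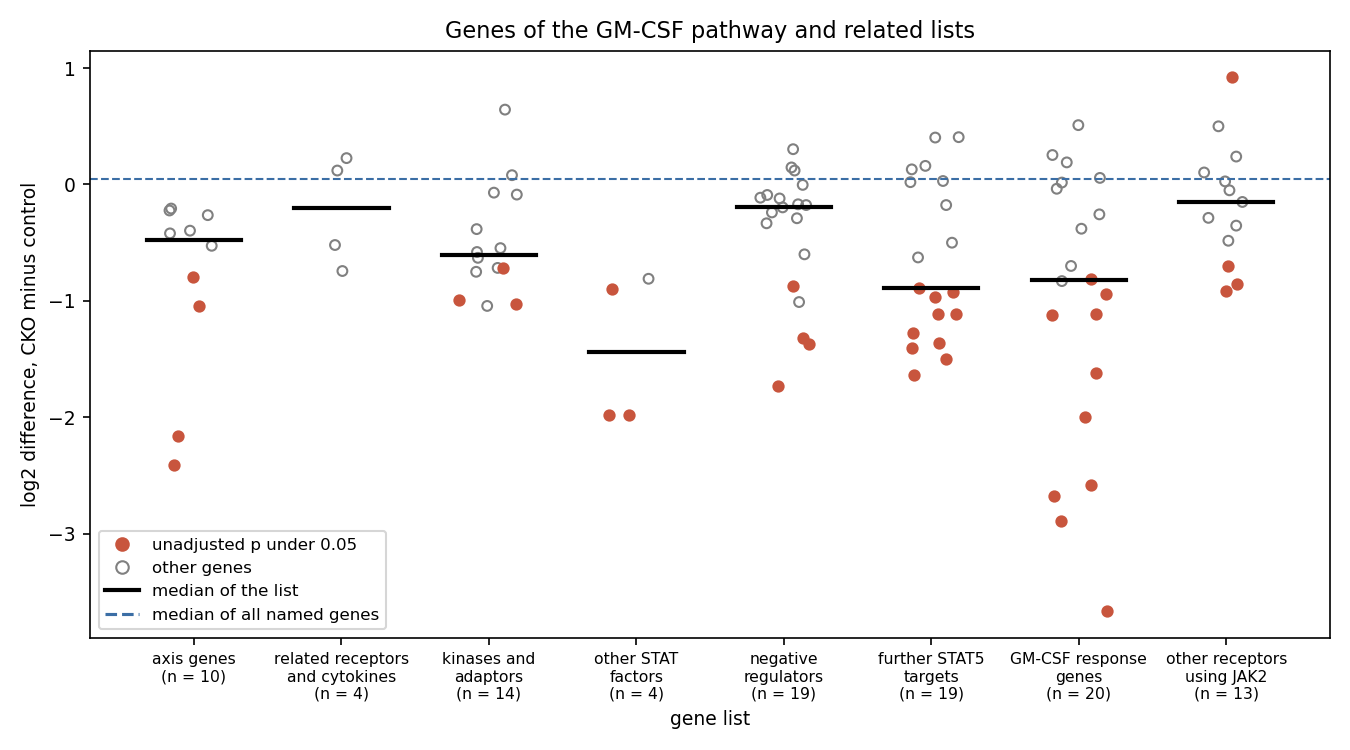
Log2 difference (CKO minus control, vertical axis) of every measured gene of the axis and of the 7 related lists (horizontal axis, with the number of genes), filled red at an unadjusted p under 0.05, with list medians as black bars and the median of all named genes (0.05) as a dashed line. The other STAT factors have the lowest median (-1.44). The list labelled other receptors using JAK2, which also holds Csf1r and Il6ra, has the highest (-0.15).

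Markers of monocytes, T cells and NK cells were all lower in CKO by their estimates. The 15 monocyte and macrophage markers were all lower in CKO, 12 at an unadjusted p under 0.05, and their mean level was 12.16 to 12.99 on the control arrays and 10.64 to 11.30 on the CKO arrays. Of the first in that list, Ly6c2, Ccr2 and Lyz2, which encode a monocyte surface antigen, a chemokine receptor and lysozyme, differed by -1.50, -1.99 and -2.01. All 13 T cell markers were lower at that p, with a mean level of 8.14 to 9.95 in controls and 6.48 to 6.99 in CKO. All 10 NK cell markers were lower, 8 of them at that p, from means of 7.35 to 8.78 in controls to 6.60 to 7.20 in CKO. Dendritic cell markers stood at means of 8.55 to 8.96 and 7.72 to 8.37, with 8 of 11 lower and 3 of these at that p. Neutrophil markers stood at 13.94 to 14.63 and 13.12 to 13.95, with 12 of 14 lower and 3 of these at that p. Of the first in that list, the calprotectin genes S100a8 and S100a9 differed by -0.20 and 0.03, and Mmp8, a collagenase gene, by -0.69. Border macrophage markers went both ways, with a median difference of -0.47 and, at that p, 4 of 9 lower and 1 (Lyve1) higher. Endothelial, oligodendrocyte and neuron markers had medians of 0.20, 0.60 and 0.66. Of the microglia markers, 10 of 14 were higher in CKO, with means of 16.16 to 16.68 in controls and 16.55 to 17.09 in CKO. The part of these cell types in the axis results was not tested, and fewer cells of a type and less RNA per cell cannot be told apart in such bulk samples.

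The order of the arrays differed between axis genes. Pim1, Jak2 and the list means of monocyte and T cell markers had their lowest control value on control replicate 2, and so did Csf2ra, Csf2rb, Stat5a, Cish and Socs2. On the CKO side, the list means of T cell and monocyte markers were lowest on CKO replicate 1, as were Csf2, Jak2, Stat5a and Socs2, whereas Csf2ra, Cish, Pim1, Stat5b and Bcl2l1 were lowest on CKO replicate 3. On CKO replicate 1, where the mean of the monocyte markers was lowest (10.64), Csf2ra had its highest CKO value (10.32).

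**Figure D4:**
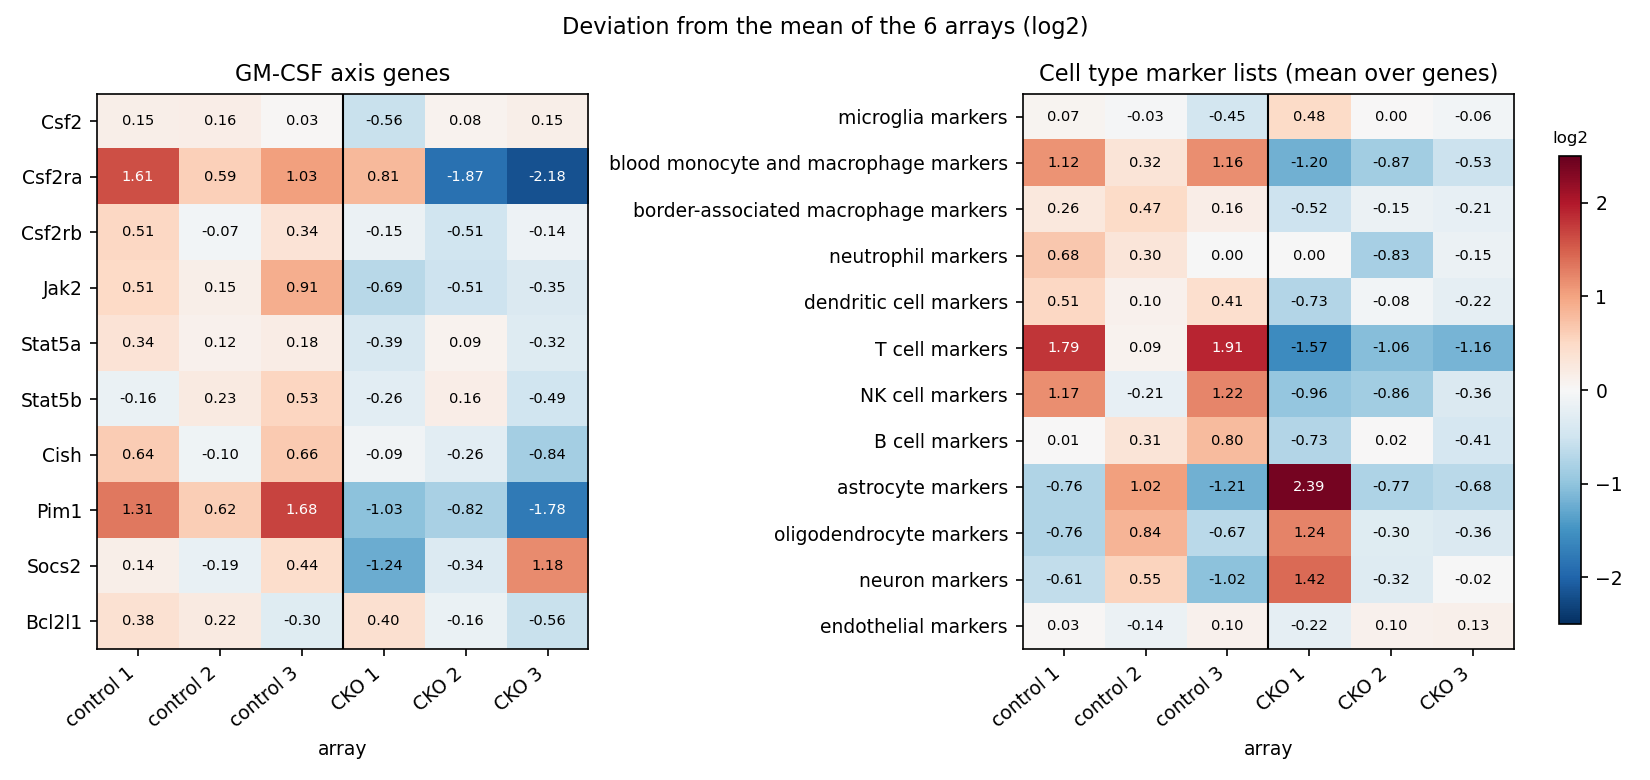
Deviation of each axis gene (left) and of the mean of each cell type marker list (right) from its mean over the 6 arrays, in log2 units by colour and number, for 3 control and 3 CKO arrays (columns). Pim1 is above its mean on all controls and below it on all CKO arrays, and astrocyte markers peak on CKO replicate 1 (2.39) and control replicate 2 (1.02).

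Genes with the most similar values across the 6 arrays were found for 4 axis genes by the root mean square difference of centred log2 values. For Csf2ra they were Eif3f, a subunit of a translation initiation factor, Ebi3, a cytokine subunit shared by interleukin-27 and interleukin-35, and Junb, a subunit of AP-1, at 0.30, 0.33 and 0.38. Each of these was also lower on CKO replicates 2 and 3 than on CKO replicate 1, such as Ebi3 at 9.56, 7.81 and 7.55 on CKO replicates 1, 2 and 3. For Pim1 they were Cd72, a lectin receptor of B cells and some myeloid cells, S100a10, an annexin partner, and Oasl2, an interferon-induced gene, at 0.15, 0.21 and 0.24. Cd72 was at 12.44, 11.96 and 12.79 in controls and at 9.84, 10.25 and 9.47 in CKO. For Jak2 they were Slc22a15, a solute carrier, Mpeg1, a pore-forming protein of macrophages, and Pdlim1, a cytoskeletal adaptor, at 0.09, 0.12 and 0.12. For Cish they were Tm9sf1, Tuba1c, an alpha tubulin, and Lyar, at 0.07, 0.08 and 0.08. With 6 arrays and a smaller range of values in Jak2 and Cish than in Pim1, these distances describe the arrays and are not compared between the 4 genes.

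**Figure D5:**
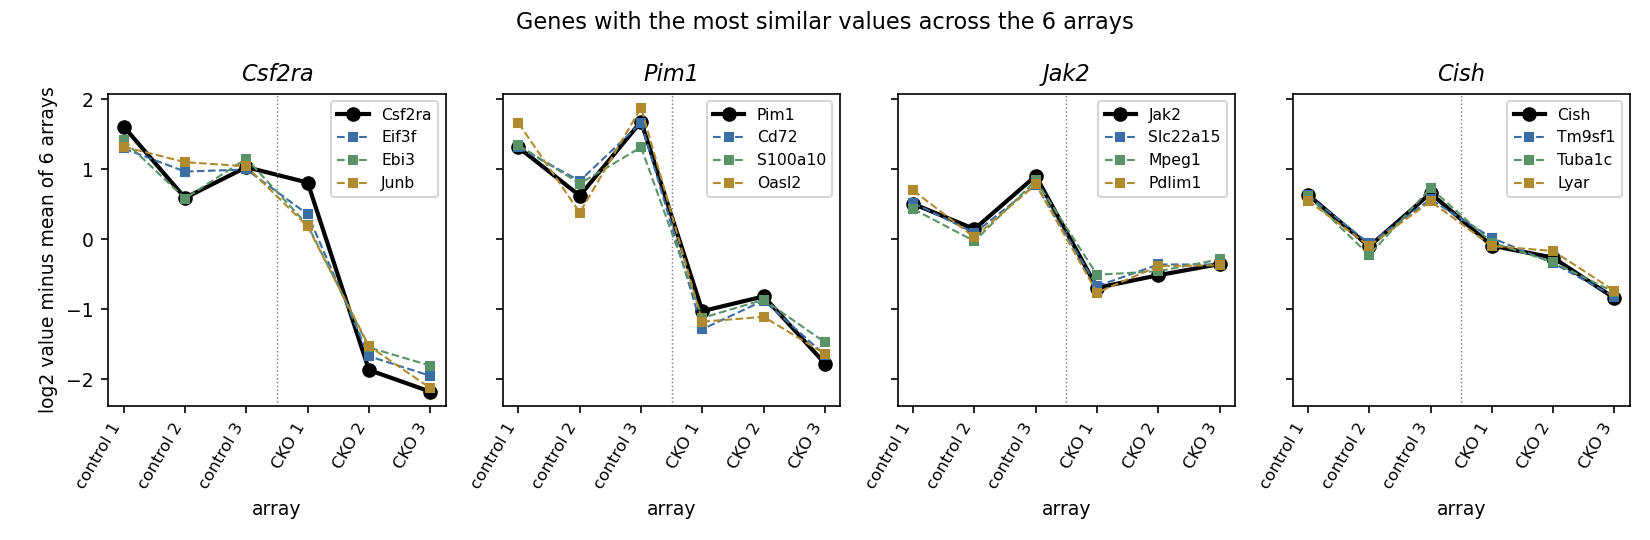
Log2 value minus the mean of the 6 arrays (vertical axis) for Csf2ra, Pim1, Jak2 and Cish (black) and the 3 genes closest to each (coloured), by array (horizontal axis). Lines only join the values of a gene, since replicates have no order, and Csf2ra and its 3 closest genes are above their means on CKO replicate 1 and below them on CKO replicates 2 and 3.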

How the data were processed

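The deposited table holds log2 values per probe set, made by the authors with robust multi-array averaging (RMA), per the submitters' processing notes. The sources used here do not give its version, settings or annotation build, or how the microglia were isolated. The values run from 2.93 to 19.93, the range of a log2 scale. RNA was extracted with TRIzol and labelled as biotinylated cDNA, per the labels' protocols.

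Of 22206 probe sets, 19572 named 1 gene in the platform annotation and 2634 are unnamed here. For 55 genes with several probe sets, the one with the highest mean was used. The model, in limma 3.58.1 under R 4.3.3, took every probe set and the 2 groups with no other term (lmFit, then eBayes with a constant prior). Differences are CKO minus control. Tests are two-sided, intervals are moderated and cover 95%, and p-values were adjusted by Benjamini-Hochberg across the whole table, with 0.05 as threshold. Counts at an unadjusted p of 0.05 are descriptions. The fit was tested on simulated data with independent noise of the same spread on every array. That test does not cover the differences between arrays described above. Members and gene lists were chosen with earlier results of these data known, and no list was tested as a set. With 3 arrays a group, exact permutation cannot reach 0.05 and was not used. With arrays, their number limits the precision.

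Named were the 10 axis genes, the 3 genes of each pathway list with the smallest p, any gene that went against its list's median at an unadjusted p under 0.05, the first 3 measured genes of the marker lists used, and the 3 closest genes by pattern for Csf2ra, Jak2, Pim1 and Cish, passing over gene models, clones and receptor or segment families. Alternatives were 3 scalings, 2 filters on dim probe sets, array weights, a robust fit with trend, a block for the replicate number, an astrocyte covariate, arrays left out, the mean of probe sets and an adjusted p of 0.1.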

Additional observations from a re-analysis of the deposited data

How the results depend on the processing

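The count of all probe sets called moved most: from 2 to 1 under quantile normalization and with the dimmest 20% or 50% left out, 4 in a trended robust fit, 44 at an adjusted p of 0.1, 749 with the astrocyte covariate, 1694 with array weights, 0 without CKO replicates 2 and 3, 2516 without control replicate 2 and CKO replicate 1 (a setting chosen after seeing the data), and 0 to 2209 with single arrays left out. Axis genes called numbered 0 with all arrays, 0 to 2 with single arrays left out, 2 with array weights and with the astrocyte covariate (Csf2ra and Pim1 in both), 1 at an adjusted p of 0.1 (Pim1) and 4 without control replicate 2 and CKO replicate 1. Those at an unadjusted p under 0.05 numbered 2 to 4, all lower, with single arrays left out, where 3.84% to 13.60% of all probe sets were lower. Pathway list genes called numbered 0 with all arrays, 0 to 15 with single arrays left out, 20 with array weights, 6 with the astrocyte covariate, 1 at an adjusted p of 0.1 and 22 without control replicate 2 and CKO replicate 1. Their count at an unadjusted p under 0.05 was 17 to 38 lower and 0 to 2 higher with single arrays left out. Over those same settings, 3.84% to 13.60% of all probe sets were lower and 1.71% to 15.40% higher at that p. The higher count was 2 under cyclic loess and with array weights, where 4.04% and 15.10% of all probe sets were higher. It was 3 without control replicate 2 and CKO replicate 1, where 15.91% of all probe sets were higher. The cause of these changes was not tested.

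The replicate number as a block left 0 probe sets called. No axis gene was called with or without it, so the calls of these genes could not be lost. The unadjusted limma p of Cish rose from 0.0446 to 0.0619 with the block. Same-numbered arrays showed no common direction of deviation (correlations -0.00548, -0.23 and 0.254 for numbers 1, 2 and 3). With 3 arrays a group, these correlations cannot show whether same-numbered samples shared a preparation. Signs turned in 12 of 579 gene and setting combinations: Bcl2l1 (0.0394 under quantile normalization, 0.061 under cyclic loess, -0.46 to 0.02 with single arrays left out, 0.30 without CKO replicates 2 and 3), Socs2 (0.22 with array weights, 0.0155 with the astrocyte covariate, -0.92 to 0.29 with single arrays left out, 0.13 without control replicate 2 and CKO replicate 1), Csf2 (-0.353 to 0.00167 with single arrays left out, 0.025 without control replicate 2 and CKO replicate 1) and Il5 (-0.0233 to 0.447 with single arrays left out, -0.21 without CKO replicates 2 and 3). The median of all named genes moved from 0.05 to -0.07 with median centring and to -0.14 without the dimmest 50%, where 11.02% of probe sets were lower and 2.70% higher at an unadjusted p under 0.05. The filter on the dimmest 20% of probe sets removed Csf2 and Cish.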
